A study of Homo sapiens with 38 samples.

Results

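The 10 genes described here encode proteins of calcium entry, calcineurin, its regulator RCAN1, and the NFAT family. They are NFATC1, NFATC2, NFATC3, NFAT5, PPP3CA, PPP3R1, RCAN1, STIM1, ORAI1 and ORAI2, taken by name from 59679 gene records of RefSeq GRCh38. For each gene, every region of 3 deposited lists that overlapped its record, widened by 50 kb on each side, was taken, which gave 368 of 168784 regions. The lists come from chromatin immunoprecipitation and sequencing (ChIP-seq) of GATA3, BHLHE40 and H3K27ac, the acetylated histone found at active promoters and enhancers. All 3 were made in Jurkat, an established cell line from a human T-cell acute lymphoblastic leukaemia, labelled as carrying a control lentivirus (Ctrl_LV) and stimulated with 50 ng/ml of PMA plus 500 ng/ml of ionomycin. The labels give the time of stimulation as 5 hours in the sample characteristics and as 2 hours in the treatment protocol.

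The series has 38 samples in 19 groups of 2, and the lists stand for 3 of those groups. The other 16 groups, among them cells with a base-editing guide and cells over-expressing BHLHE40, were not analysed here. Each list gives 1 value per region for its group and none per sample. There is therefore no spread between replicates and no test between groups, and the depth behind the values is unknown. The signal value of a region is the authors' own measure of its enrichment and was compared only within its list. A region is called shared when it overlaps a region of another list by at least 1 bp, and intervals on shares are 95% Wilson intervals that cover counting only. They treat regions as independent, which regions of the same window may not be, and are not tests. H3K27ac was listed at the gene start of 5 of 5 T-cell markers (CD3E, CD2, LCK, CD28 and ZAP70), read at either end of the record where no strand was at hand. The same held for 1 of 8 markers of B cells, myeloid cells, hepatocytes and fibroblasts, namely COL1A1. Over all protein-coding genes read in the same way the share was 53.0%.

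In a T cell, emptying of the calcium store in the endoplasmic reticulum is sensed by STIM1, which opens channels of the ORAI family in the plasma membrane. The calcium that enters activates calcineurin, a phosphatase made of a catalytic subunit (PPP3CA) and a regulatory subunit (PPP3R1), which removes phosphates from NFATC1, NFATC2 and NFATC3 so that they move into the nucleus. RCAN1 binds and restrains calcineurin, and NFAT5 is a relative of the NFATC factors that lacks the calcineurin-binding part and responds to osmotic stress. Ionomycin carries calcium across membranes and so drives this pathway directly. GATA3 is a zinc-finger factor of the T-cell lineage that binds GATA motifs, and BHLHE40 is a basic helix-loop-helix factor, often a repressor, that prefers the E-box CACGTG.

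Within 1 kb of the starts of these genes BHLHE40 was listed more often than GATA3, at 9 of 10 genes against 3. The shares of all protein-coding genes, read at the start or, without a strand, at either end, were 45.1% and 20.9%. Within 5 kb the counts were 9 for BHLHE40, 7 for GATA3 and 9 for H3K27ac, against 51.1%, 29.9% and 64.9%. A start was called occupied when a region overlapped the 1 kb on either side of the start of the gene record. For the 7 genes with a strand in the RefSeq promoter table, BHLHE40 was listed at 6 starts and H3K27ac at the same 6, while GATA3 was listed at 2, those of NFATC1 and STIM1. Among 15843 protein-coding genes with a strand, the shares were 47.1% for BHLHE40, 54.8% for H3K27ac and 22.1% for GATA3. BHLHE40 and H3K27ac without GATA3 marked 4 of the 7 starts (NFATC3, PPP3R1, RCAN1 and ORAI2), against 25.0% of those genes. NFATC1 and STIM1 held all 3, against 20.3%, and NFATC2 held none, against 42.9%. Those shares are over genes with and without H3K27ac at the start. Of the 8683 genes with it, 3957 held BHLHE40 without GATA3 and 3222 held all 3. The H3K27ac regions at the starts of NFATC1 and RCAN1 were weak, with a −log10 q of at most 3.72 and 4.96. With only H3K27ac regions whose −log10 q was 5 or more, H3K27ac was listed at 7 of the 10 genes instead of 9. The share of all genes under that limit was not computed. For NFAT5, PPP3CA and ORAI1 both ends of the record were read: BHLHE40 and H3K27ac were each listed at an end in 3 of 3, and GATA3 in 1, ORAI1. The shares over 20037 protein-coding genes read at either end were 46.9%, 56.3% and 22.8%.

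The signal of BHLHE40 at the starts varied from gene to gene. It was 24.2 at PPP3R1, 21.8 at the lower end of ORAI1, 18.95 at NFATC1, 18.3 at RCAN1 and 14.8 at the lower end of NFAT5. It was 10.7 at the higher end of PPP3CA, 10.2 at ORAI2, 9.03 at NFATC3 and 8.69 at STIM1. The median over the whole BHLHE40 list was 9.35, and 7 of these 9 values lay above it. The strongest region was taken where a start had several, and the same share over all gene starts was not computed. The 3 GATA3 regions at starts had signals of 12.6 at NFATC1, 9.91 at ORAI1 and 5.03 at STIM1, against a whole-list median of 11.2. In each gene the strongest GATA3 region of the window lay elsewhere, although only 3 genes had a GATA3 region at the start at all. At NFATC1, NFAT5, PPP3R1 and RCAN1 the strongest BHLHE40 region was the one at the start. RCAN1 had only that 1 BHLHE40 region in its window. The shares of all genes with their strongest region at the start were not computed.

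**Figure D1:**
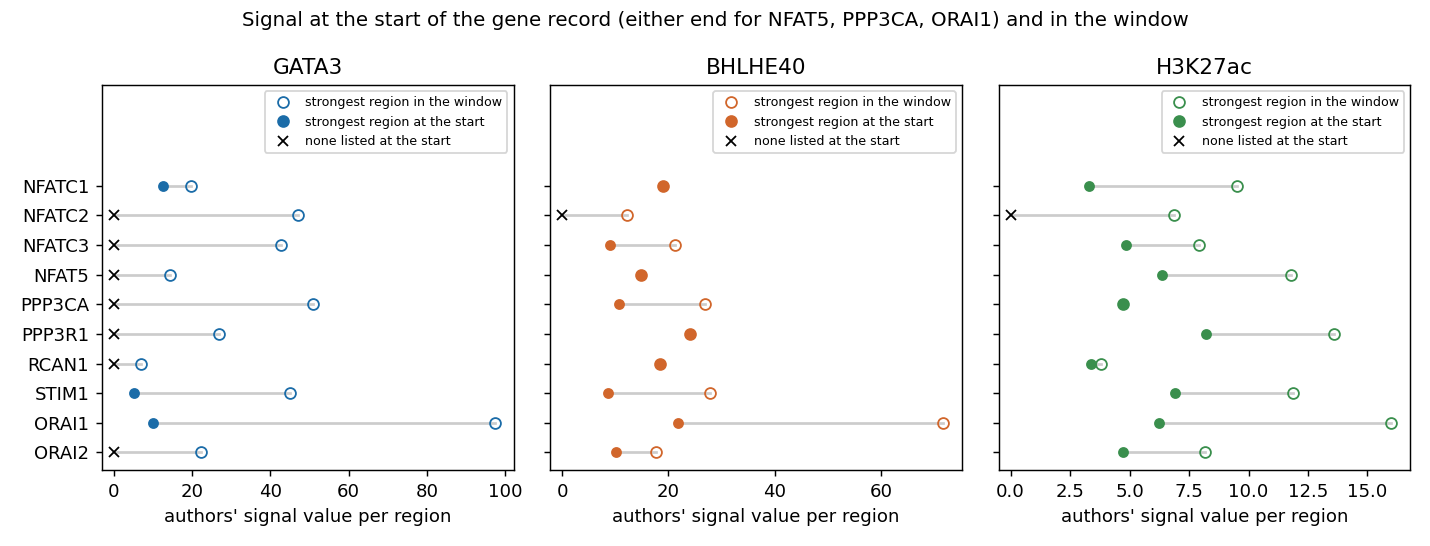
Signal value (authors' unit, each list on its own axis) of the strongest region in each gene's window (open circles) and of the strongest region at the gene start (filled circles; either end for NFAT5, PPP3CA and ORAI1), with crosses where none was listed at the start. GATA3 has 7 crosses among the 10 genes and its filled circles lie left of the open ones, while for BHLHE40 the circles coincide at NFATC1, NFAT5, PPP3R1 and RCAN1.

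The bases before 4 of the starts are printed to show where the preferred E-box of BHLHE40 was and was not found under a BHLHE40 region. Each run is the 250 bases upstream of a RefSeq start (table of build GRCh38.p14), read 5′ to 3′ on the strand of the gene, with CACGTG in capitals. CACGTG reads the same on both strands. The ORAI2 and NFATC3 runs each hold 1 copy, and the PPP3R1 and RCAN1 runs, under stronger BHLHE40 regions, hold none.
ORAI2, chr7:102433325-102433574, plus strand: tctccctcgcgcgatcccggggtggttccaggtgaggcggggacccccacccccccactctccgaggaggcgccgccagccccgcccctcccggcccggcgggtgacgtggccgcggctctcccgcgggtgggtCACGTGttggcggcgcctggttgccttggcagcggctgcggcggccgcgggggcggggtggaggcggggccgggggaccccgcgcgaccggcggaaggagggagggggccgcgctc
NFATC3, chr16:68085120-68085369, plus strand: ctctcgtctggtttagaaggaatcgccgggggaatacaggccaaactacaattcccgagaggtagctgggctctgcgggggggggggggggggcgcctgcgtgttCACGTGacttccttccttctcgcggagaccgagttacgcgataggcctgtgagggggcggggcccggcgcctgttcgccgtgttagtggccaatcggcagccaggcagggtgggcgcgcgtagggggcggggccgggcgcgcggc
PPP3R1, chr2:68252533-68252782, minus strand: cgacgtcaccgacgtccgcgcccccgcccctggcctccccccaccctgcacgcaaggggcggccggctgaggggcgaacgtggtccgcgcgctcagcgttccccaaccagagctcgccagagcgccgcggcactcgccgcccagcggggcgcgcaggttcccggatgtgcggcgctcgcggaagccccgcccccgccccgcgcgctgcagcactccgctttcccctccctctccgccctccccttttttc
RCAN1, chr21:34615114-34615363, minus strand: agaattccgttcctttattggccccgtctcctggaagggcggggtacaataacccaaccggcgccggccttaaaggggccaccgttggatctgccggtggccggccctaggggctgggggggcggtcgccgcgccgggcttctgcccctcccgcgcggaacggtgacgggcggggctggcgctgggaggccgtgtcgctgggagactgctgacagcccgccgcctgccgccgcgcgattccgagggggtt

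In ORAI2 the E-box begins 116 bases before the start, at chr7:102433459-102433464, and its centre lies 110 bp from the BHLHE40 summit. In NFATC3 it begins 145 bases before the start, at chr16:68085225-68085230, and lies 472 bp from the summit of a wide region. Of the 17 starts listed for the 7 genes, 2 held CACGTG in this window, against 6.34% of 35097 promoters of the same length. The share was 9.79% of the 11374 promoters that overlapped a BHLHE40 region and 4.69% of the others. A match is a description of the letters and not a binding site, and most promoters under BHLHE40 held no CACGTG in these 250 bases.

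RCAN1 has 6 listed starts, and the one at position 34526822 of chromosome 21 is that of its short form, known from earlier work to be switched on by calcineurin and NFAT. That promoter is printed because no factor region lay near it in these lists. GGAAA, the core bound by NFAT proteins, is in capitals, as TTTCC where it is on the other strand.
RCAN1, chr21:34526823-34527072, minus strand: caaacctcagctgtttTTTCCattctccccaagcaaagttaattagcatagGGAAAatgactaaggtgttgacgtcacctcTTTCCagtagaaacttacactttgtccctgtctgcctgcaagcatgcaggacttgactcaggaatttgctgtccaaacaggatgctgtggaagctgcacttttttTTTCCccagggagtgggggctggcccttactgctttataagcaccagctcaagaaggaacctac

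The core occurs 4 times, beginning 234, 199, 169 and 64 bases before the start, and an AP-1 motif, TGANTCA, begins 116 bases before it. Neither overlaps the other. GGAAA is a common string: it was found on 1 strand or the other in 55.7% of the 35097 promoters and in 8 of the 17 starts here. TGANTCA was in 6.57% of promoters and in 2 of the 17, and the GATA core GATAA in 20.5% and 2 of the 17. The nearest BHLHE40 summit lay 88478 bp from this start, the nearest GATA3 summit 113799 bp and the nearest H3K27ac summit 16288 bp. Of the RCAN1 starts, only those at 34615113 and 34614446 had a BHLHE40 region within 1 kb. NFAT itself was not among the proteins measured in these lists.

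Across the whole windows, all 10 genes held at least 1 region of each list, against 76.1% of protein-coding windows for GATA3, 80.0% for BHLHE40 and 92.6% for H3K27ac. The windows held 74 of 29009 GATA3 regions, 69 of 26205 BHLHE40 regions and 225 of 113570 H3K27ac regions. The median gene here had 4.5, 5.5 and 20 regions, compared with 2, 2 and 8 over all protein-coding windows. These windows were longer, with a median of 236 kb against 124 kb. Per 100 kb the medians were 2.30 against 0.992 for GATA3, 2.65 against 1.62 for BHLHE40 and 8.10 against 5.90 for H3K27ac.

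The groups of genes differed in density. The 3 genes of store-operated calcium entry (STIM1, ORAI1 and ORAI2) had 6.22 GATA3, 5.88 BHLHE40 and 15.2 H3K27ac regions per 100 kb. The 4 NFAT genes had 2.52, 2.82 and 7.86. The calcineurin subunits and RCAN1 had 1.63, 0.879 and 7.41. Without STIM1, ORAI1 and ORAI2 had 2.92 GATA3, 7.09 BHLHE40 and 14.2 H3K27ac regions per 100 kb, so the GATA3 density of that group rested on STIM1. Most regions of these 2 windows lay in the flanks, which hold other genes. Inside the record were 2 of 8 BHLHE40 and 6 of 23 H3K27ac summits at ORAI1, and 1 of 9 and 1 of 11 at ORAI2. STIM1 alone held 29 of the 74 GATA3 regions (39.2%), and leaving it out left 45 GATA3, 52 BHLHE40 and 171 H3K27ac regions over 9 genes. The other groups leaned on single genes too. NFATC3 held 12 of the 25 GATA3, 14 of the 28 BHLHE40 and 38 of the 78 H3K27ac regions of the NFAT genes. PPP3R1 held 9 of the 13 GATA3 regions of the calcineurin subunits and RCAN1. With so few genes in each group, these densities describe the windows and were not tested.

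**Figure D2:**
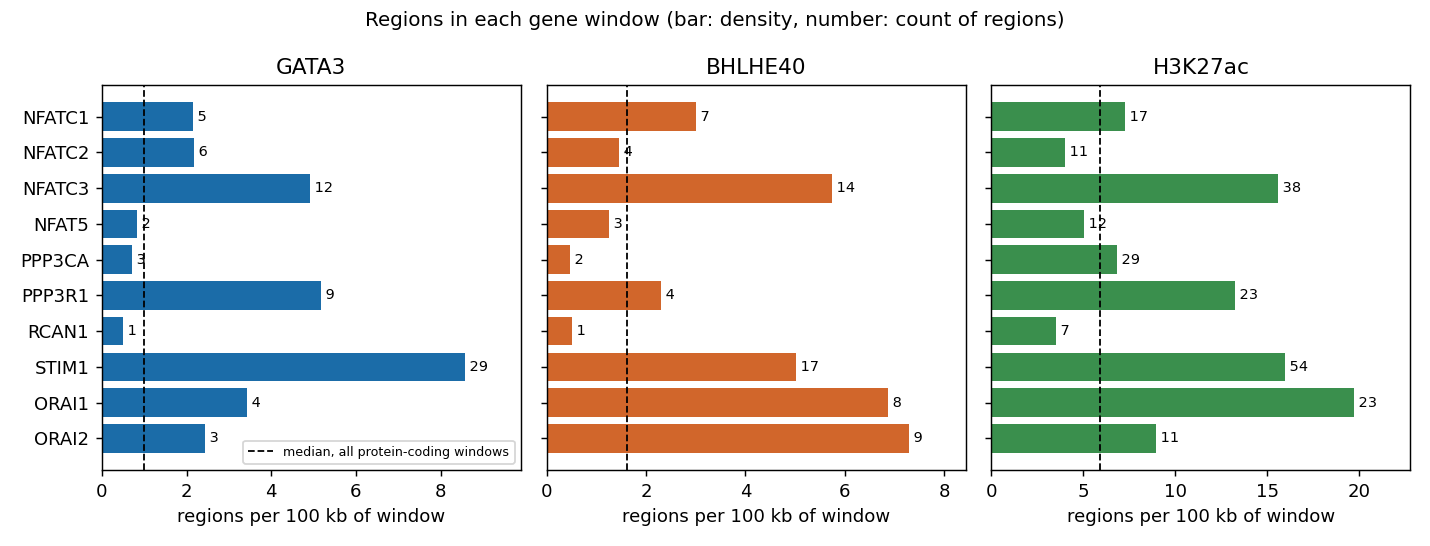
Regions per 100 kb of window (bars) and number of regions (figures at the bars) for each gene and list, with the median over 20037 protein-coding windows as a dashed line. STIM1 has the highest GATA3 bar at 8.56, ORAI2 the highest BHLHE40 bar at 7.30 and ORAI1 the highest H3K27ac bar at 19.7, and NFAT5 and RCAN1 lie under the dashed line in all 3 lists.

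GATA3 and BHLHE40 met at 36 places in these windows, in 9 of the 10 genes. The share of all protein-coding windows with such a place was not computed, and the windows here had a longer median length. The shared places were 36 of 74 GATA3 regions (48.6%, interval 37.6% to 59.8%) and 36 of 69 BHLHE40 regions (52.2%, interval 40.6% to 63.5%). The whole lists gave 48.7% and 53.0%, inside both intervals. Without STIM1 the GATA3 share was 53.3% (24 of 45). At the shared places the summits of the 2 factors lay a median of 28 bp apart (range 0 to 449 bp), with 22 of 36 within 50 bp and 5 more than 200 bp apart. The median over 14123 shared GATA3 regions of the whole list was 35 bp.

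H3K27ac overlapped 54 of 69 BHLHE40 regions (78.3%, interval 67.2% to 86.4%, whole list 76.4%) and 42 of 74 GATA3 regions (56.8%, interval 45.4% to 67.4%, whole list 49.1%). With the factor summit required inside the H3K27ac region the shares fell to 49.3% for BHLHE40 (whole list 55.4%) and 35.1% for GATA3 (whole list 33.3%). With only H3K27ac regions whose −log10 q was 5 or more they fell to 58.0% (whole list 60.2%) and 37.8% (whole list 33.4%). Without STIM1 the GATA3 share by overlap was 64.4%. GATA3 regions shared with BHLHE40 overlapped H3K27ac in 28 of 36 cases (77.8%, whole list 77.4%), and unshared ones in 14 of 38 (36.8%, interval 23.4% to 52.7%). The unshared share over the whole list was 22.3%, just under the interval. BHLHE40 regions shared with GATA3 overlapped H3K27ac in 28 of 36 cases (77.8%, whole list 77.6%), and unshared ones in 26 of 33 (78.8%, whole list 75.1%). In all, 28 of 74 GATA3 regions had both BHLHE40 and H3K27ac (37.8%, whole list 37.7%) and 24 had neither (32.4%, whole list 39.9%).

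Seen from the mark, 89 of the 225 H3K27ac regions overlapped a factor (39.6%, interval 33.4% to 46.1%), against 26.4% of the whole list and 29.7% of the 90321 regions in windows of all protein-coding genes. The 69 regions whose −log10 q was 5 or more did so in 57 cases (82.6%, interval 72.0% to 89.8%), against 71.9% in all protein-coding windows. Of the 156 weaker regions, 32 did (20.5%, interval 14.9% to 27.5%), against 13.2%. The stronger regions were wider, with a median of 630 bp against 227.5 bp, and the part of width in these shares was not tested. Several H3K27ac regions can overlap the same factor region, and 20 of the 89 lay in the STIM1 window, so these intervals may be too narrow.

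The strongest GATA3 region of each window overlapped BHLHE40 in 8 of 10 genes, the exceptions being PPP3R1 and RCAN1, against 63.2% of 15245 protein-coding windows with a GATA3 region. The strongest BHLHE40 region overlapped GATA3 in 6 of 10, against 59.3% of 16035 windows. All 10 of those BHLHE40 regions overlapped H3K27ac, against 87.6% of the same windows. Only ORAI1 and PPP3CA had a GATA3 region among the strongest 5% of its list (2 of 10, against 9.58% of protein-coding windows). ORAI1 alone had such a BHLHE40 region (1 of 10, against 11.4%).

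**Figure D3:**
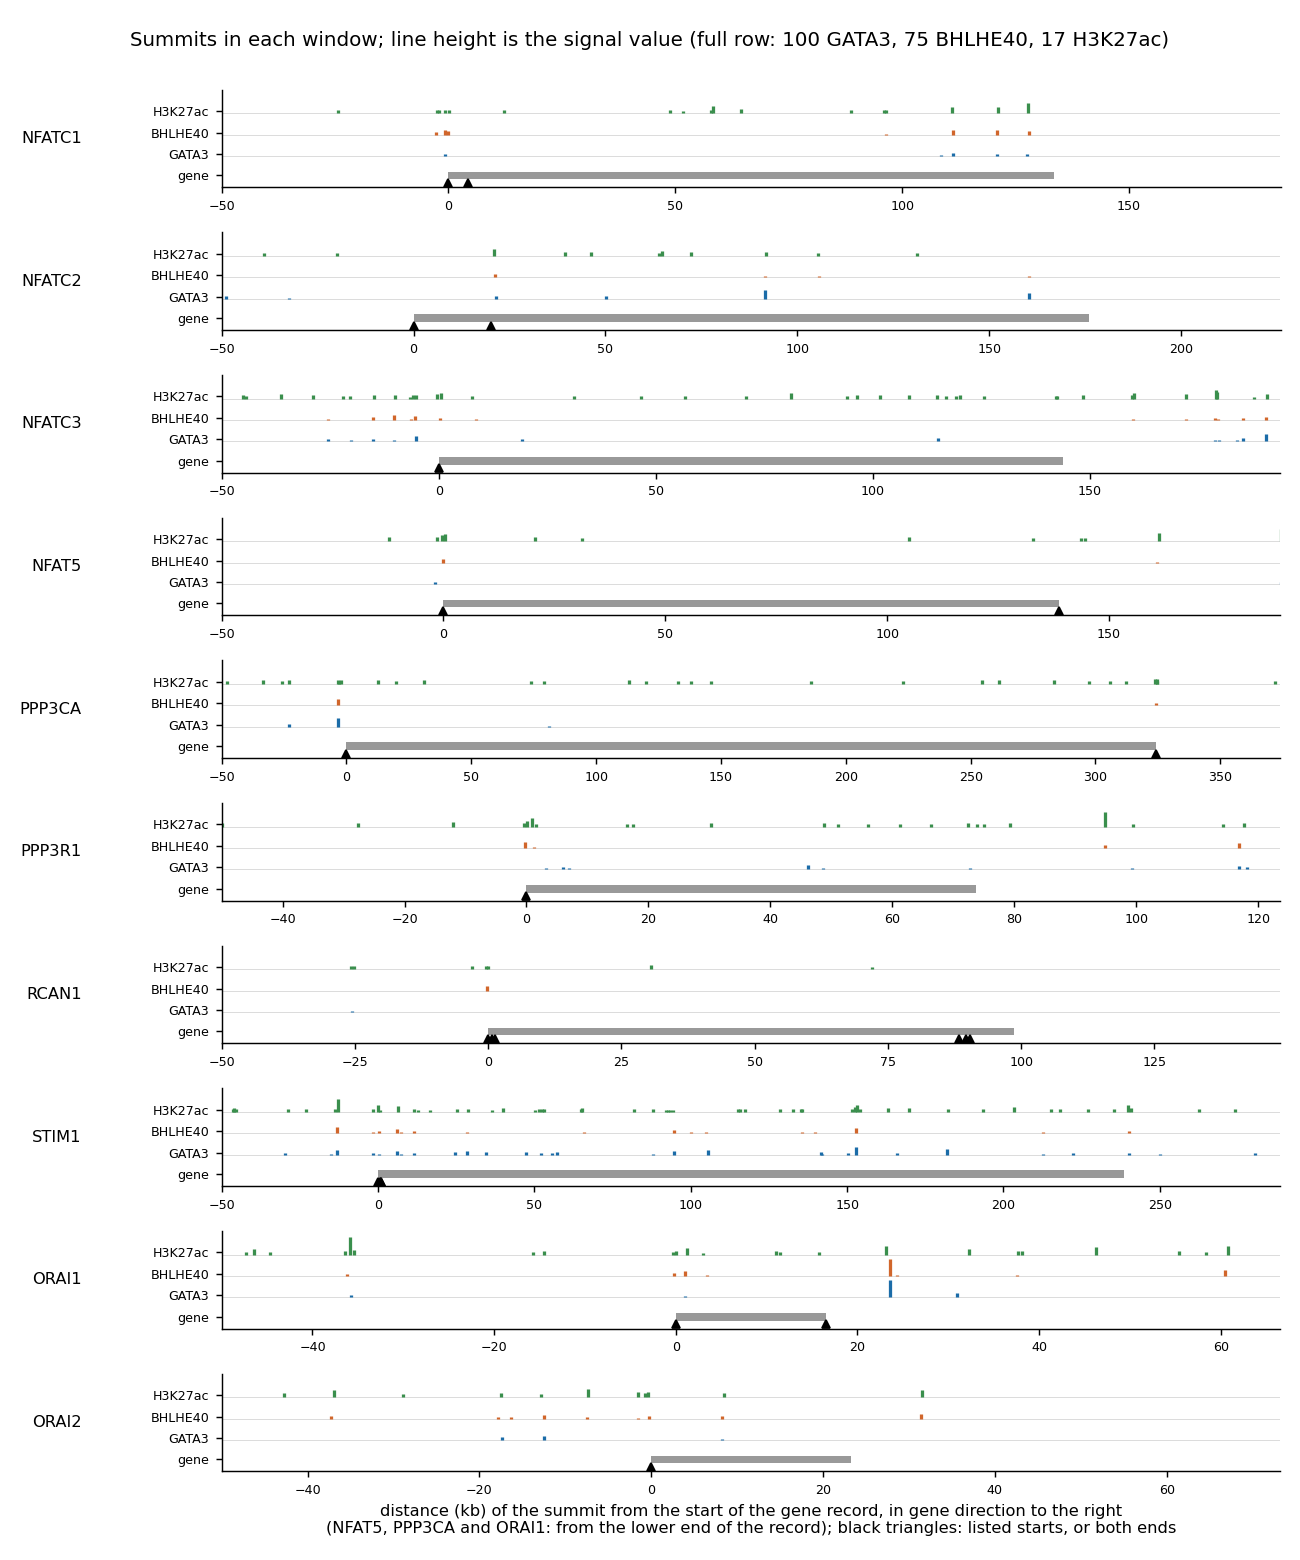
Summits of the 3 lists along each window in kb from the start of the gene record, with the gene running to the right (from the lower end for NFAT5, PPP3CA and ORAI1); the line height is the signal value, scaled per list, grey bars are gene records and black triangles are listed starts or both ends. STIM1 has 22 GATA3 summits inside its record, while NFAT5 and RCAN1 have no GATA3 or BHLHE40 summit inside theirs.

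NFATC1 (chr18:79395930-79529323, plus strand), which is known for an inducible promoter in activated T cells, had 5 GATA3, 7 BHLHE40 and 17 H3K27ac regions. At its start lay a BHLHE40 region at chr18:79395735-79396348 with signal 14.0 and its summit 8 bp from the start. A stronger one with signal 18.95, at chr18:79394493-79395363, overlapped a GATA3 region of signal 12.6. The weak H3K27ac region there had a signal of 3.29. The second listed start, at 79400299, had no region of any list within 1 kb, and the nearest summits were 5143 bp (GATA3), 4377 bp (BHLHE40) and 4177 bp (H3K27ac) away.

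The other shared places of NFATC1 were all inside the gene and toward its far end. They had GATA3 and BHLHE40 signals of 19.6 and 18.3 at chr18:79506954-79507716, 13.0 and 17.7 at chr18:79516180-79517173, and 9.20 and 14.4 at chr18:79522954-79524157. The summits were 3, 36 and 400 bp apart. The strongest H3K27ac region of the window, signal 9.53, covered the last of these at chr18:79522627-79524553. All 4 shared places of NFATC1 overlapped H3K27ac, and 4 of its 5 GATA3 regions were shared.

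NFATC2 (chr20:51386963-51562839, minus strand), an NFAT protein already present in resting T cells, had strong GATA3 and weak BHLHE40 at 2 of its 3 shared places. At chr20:51470940-51471648 GATA3 had a signal of 47.1, in the top 5.65% of its list, and BHLHE40 one of 6.75, in the top 75.3% of its own. At chr20:51402082-51402890 the signals were 34.5 and 5.82, with no H3K27ac. The start of the record at 51562839 was bare: the nearest summits were 21370 bp (GATA3), 21341 bp (BHLHE40) and 20073 bp (H3K27ac) away. The nearest GATA3 and BHLHE40 summits belonged to the second listed start, at 51542719, where all 3 lists had a region. The signals there were 13.1 for GATA3, 12.3 for BHLHE40 and 6.86 for H3K27ac, and the summits lay 1250, 1221 and 795 bp into the gene. The BHLHE40 and H3K27ac regions at that start were the strongest of the window, so NFATC2 counts as occupied if any listed start is read.

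NFATC3 (chr16:68085370-68229259, plus strand) had the densest window of the NFAT genes, with 12 GATA3, 14 BHLHE40 and 38 H3K27ac regions. Only 4.34%, 7.06% and 3.04% of protein-coding windows were as dense in these lists. Most of the factor regions lay outside the gene itself: 2 of 12 GATA3 and 3 of 14 BHLHE40 summits were in the record. The window also holds DUS2, ESRP2, PLA2G15 and SLC7A6, and regions cannot be assigned to one gene or another from position alone. The start had a wide BHLHE40 region of signal 9.03 at chr16:68083883-68086345 and an H3K27ac region of signal 4.86. The nearest GATA3 summit was 5177 bp away, in a shared place at chr16:68079427-68080537 with signals of 27.8 and 15.2. The strongest GATA3 region, signal 42.8 at chr16:68275675-68276392, overlapped BHLHE40 at 11.002 inside SLC7A6. The strongest BHLHE40 region, signal 21.3 at chr16:68074618-68075551, overlapped GATA3 at 7.31.

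NFAT5 (chr16:69565966-69704654) was sparse and had no factor summit in its record. BHLHE40 had a signal of 14.8 at chr16:69565750-69566627, with the summit 13 bp from the lower end, and H3K27ac 6.36 beside it. The GATA3 region nearest to this end, signal 9.58 at chr16:69563816-69564533, had its summit 1936 bp away and overlapped H3K27ac. The only shared place, with signals of 14.4 and 11.5, lay at the outer edge of the window at the end of NOB1. The strongest H3K27ac region of the window, signal 11.8, was there too.

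The windows of PPP3CA and RCAN1 were thin in the factors, and that of PPP3R1 was dense in GATA3, at 5.18 regions per 100 kb. PPP3CA (chr4:101023418-101347526) has the longest record of the 10 and no other protein-coding gene in its window, and held 3 GATA3 and 2 BHLHE40 regions. A shared place at chr4:101019671-101020727 had a GATA3 signal of 50.9, among the strongest 5% of that list, and a BHLHE40 signal of 26.985. The summits were 16 bp apart and lay 3247 and 3263 bp outside the lower end of the record. At the higher end, next to PPP3CA-DT, a BHLHE40 region of signal 10.7 spanned chr4:101345840-101348392 and overlapped the strongest H3K27ac region of the window, signal 4.73. PPP3CA had 29 H3K27ac regions in all, of which 2 had a −log10 q of 5 or more.

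PPP3R1 (chr2:68178857-68252532, minus strand) had BHLHE40 at its start and GATA3 within its body. BHLHE40 was strong at the start, with a signal of 24.2 at chr2:68252340-68253090 and its summit 241 bp upstream. The H3K27ac regions that overlapped it had signals of 5.31 and 3.61. The strongest H3K27ac region at the start, signal 8.21, did not overlap it and had its summit 928 bp into the gene. GATA3 was absent from the start but had 6 summits inside the record, more than in any of the other genes except STIM1. Its strongest region, signal 26.8 at chr2:68205918-68206550, overlapped neither BHLHE40 nor H3K27ac. None of the GATA3 regions inside PPP3R1 overlapped BHLHE40. The 1 shared place of the window had signals of 21.5 and 20.9, lay at chr2:68135448-68135906, 43174 bp beyond the gene by its GATA3 summit, and had no H3K27ac. The strongest H3K27ac region, signal 13.6, was at the ends of DNAAF10 and PNO1.

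RCAN1 (chr21:34516442-34615113, minus strand) had the fewest regions of the 10 genes, 1 of GATA3, 1 of BHLHE40 and 7 of H3K27ac. The BHLHE40 region at chr21:34615073-34615740 had a signal of 18.3, in the top 14.8% of its list, and a summit 187 bp upstream of the long-form start. The H3K27ac regions beside it were weak, the strongest at 3.38, and no H3K27ac region of the window reached a −log10 q of 5. GATA3 was listed only at chr21:34640483-34640799, with a signal of 6.91 and 25508 bp from the record. RCAN1 was the 1 gene of the 10 with no shared place.

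STIM1 (chr11:3854604-4093210, plus strand), the calcium sensor, had 29 GATA3, 17 BHLHE40 and 54 H3K27ac regions. Its 8.56 GATA3 regions per 100 kb were matched or passed by 0.559% of protein-coding windows, and 22 of the 29 had their summit inside the gene. BHLHE40 at 5.02 per 100 kb was matched or passed by 9.73%. GATA3 occurred with neither BHLHE40 nor H3K27ac at 13 of its 29 regions, and with both at 9. The median GATA3 signal of the window was 9.94, under the list's median of 11.2.

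At the start of STIM1 GATA3 was weak, in the top 97.4% of its list, and BHLHE40 was near the middle of its own, in the top 55.5%. GATA3 had a signal of 5.03 at chr11:3854361-3855278 and BHLHE40 one of 8.69 at chr11:3854261-3855548, with summits 2 bp apart, while H3K27ac reached 6.92. The strongest place of the gene was internal, at chr11:4006950-4007964, where GATA3 had a signal of 44.9 and BHLHE40 one of 21.6, with summits 4 bp apart. A GATA3 region of signal 31.9 at chr11:4036046-4037014 overlapped no BHLHE40 region. Upstream, next to RHOG, a shared place at chr11:3841199-3842333 had signals of 27.6 and 27.8, with the strongest H3K27ac region of the window at 11.9. The third strongest shared place by GATA3, signal 23.9 at chr11:3959875-3960865, had a BHLHE40 signal of 2.60 and no H3K27ac. That BHLHE40 region ranked 26024 of 26205 in its list.

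ORAI1 (chr12:121626530-121643109), the channel subunit, had the strongest factor regions of the 10 genes. The GATA3 region at chr12:121649281-121650591 had a signal of 97.3 and ranked 279 of 29009. The BHLHE40 region at chr12:121649153-121650568 had a signal of 71.7 and ranked 130 of 26205. Their summits were 4 bp apart, 6958 and 6954 bp beyond the higher end of the ORAI1 record and inside MORN3. H3K27ac at this place had a signal of 7.58.

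At the lower end of ORAI1 BHLHE40 had signals of 21.8 at chr12:121626807-121628189 and 12.9 at chr12:121625789-121626721. GATA3 overlapped the former with a signal of 9.91, and the summits were 7 bp apart. All 4 GATA3 regions of the ORAI1 window overlapped H3K27ac, as did 7 of 8 BHLHE40 regions. Its 23 H3K27ac regions covered 10.3% of the window, the highest share of the 10. By number they stood at 19.7 per 100 kb, matched or passed by 0.409% of protein-coding windows. The strongest H3K27ac region, signal 16.0 at chr12:121590367-121590894, lay in KDM2B-DT, 35895 bp below the record.

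ORAI2 (chr7:102433575-102456825, plus strand), a relative of ORAI1, had more BHLHE40 than GATA3 regions, 9 against 3, and 5 other protein-coding genes in its window. Its 7.30 BHLHE40 regions per 100 kb were matched or passed by 3.11% of protein-coding windows. The start carried a BHLHE40 region of signal 10.2 at chr7:102433116-102434450, with its summit 224 bp upstream, close to the E-box printed above, and H3K27ac of 4.71. All 3 GATA3 regions were shared. The strongest had a signal of 22.2 at chr7:102420884-102421363, with BHLHE40 at 15.4 and summits 4 bp apart. The strongest BHLHE40 region, signal 17.6 at chr7:102464551-102465482, lay at the ends of ALKBH4 and LRWD1.

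**Figure D4:**
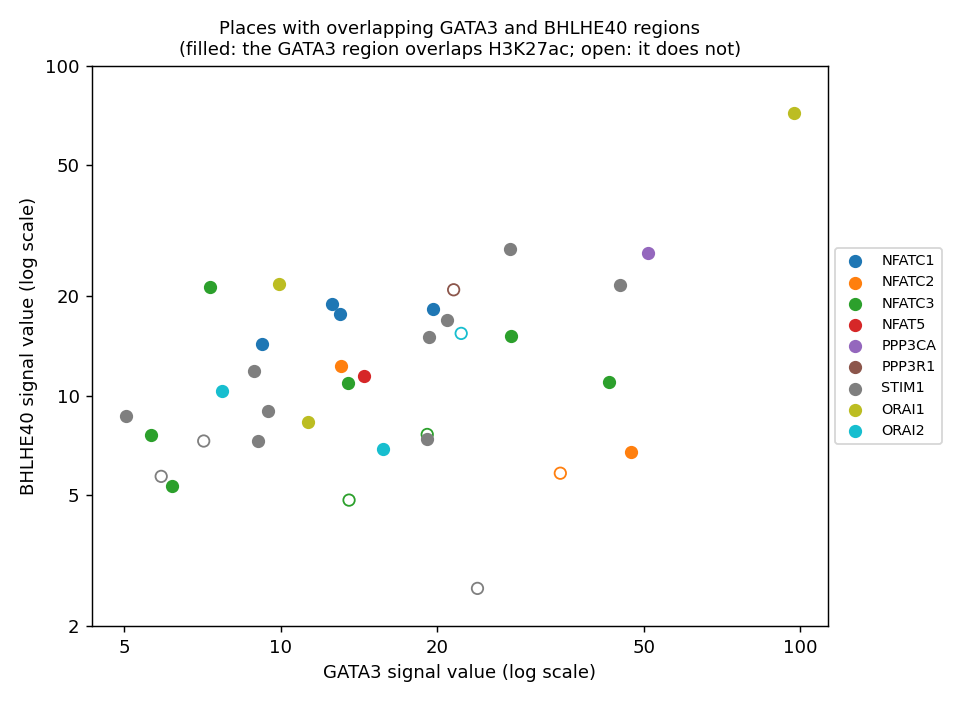
GATA3 signal (horizontal, log scale) and BHLHE40 signal (vertical, log scale) at the 36 places where regions of both lists overlap, coloured by gene, filled where the GATA3 region overlaps H3K27ac (28) and open where it does not (8). The ORAI1 place at 97.3 and 71.7 stands at the upper right, and the NFATC2 places at 47.1 and 34.5 on the horizontal axis have BHLHE40 signals of 6.75 and 5.82.

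The other genes of the pathway were read the same way, as a list of 30 that includes IP3 receptors, calcium pumps and NFAT kinases. Of these, 22 had a strand in the table: GATA3 was listed at 12 starts, BHLHE40 at 15 and H3K27ac at 20, and 10 had all 3. Those 10 were STIM2, CALM3, ITPR1, PLCG1, FKBP1A, GSK3B, CSNK1A1, ATP2A2, ATP2B1 and CRACR2A. Among all protein-coding genes with a strand the shares were 22.1% for GATA3, 47.1% for BHLHE40, 54.8% for H3K27ac and 20.3% for all 3. PPP3R2, a regulatory calcineurin subunit known from testis, and RCAN2 had none of the 3 (2 of 22, against 42.9%). The 8 genes read at both ends gave 5 for GATA3, 7 for BHLHE40 and 8 for H3K27ac. All protein-coding genes read at either end gave 22.8%, 46.9% and 56.3%. GATA3 was thus listed at 17 of 30 of these genes and at 3 of the 10 described above, against 20.9% of all protein-coding genes read in the same way. The share of the 10 is near that of all genes. The difference between the lists of genes was not tested.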

How the data were processed

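Chromatin immunoprecipitation and sequencing lists of 3 Ctrl_LV groups were used, 1 list for each group of 2 samples. MACS2 and hg38 are named in the submitters' processing notes without their role; the aligner, filters and input use are not given in the sources used here. The deposited GATA3 and BHLHE40 lists are named for an irreproducible discovery rate of 0.05, and the name of the H3K27ac list says pooled. The authors' score runs from 540 to 1000 in the factor lists. The authors' signal value was used only to rank and describe regions within a list. The deposited −log10 q is per region, and −log10 p was not used.

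Regions were assigned to a window when they overlapped it by at least 1 bp, and coordinates were made 1-based. Gene records, starts and upstream bases came from RefSeq GRCh38.p14. Strand was taken from the promoter table, which matched 7 of the 10 genes; NFAT5, PPP3CA and ORAI1 had no entry. Strand was known for 15843 of 20037 protein-coding genes. ORAI1 is classed as a transcribed pseudogene in the gene table and is not among them. Exons, introns and UTRs were not told apart. Named regions are the strongest of each list per window, those at the start, up to 3 shared places by GATA3 signal and factor regions in the strongest 5%; further regions were named after their values were seen. No test between groups was made. The names of the pathway genes read at both ends of the record are not reported here. The genes, lists and rules were chosen with earlier results of these data known. Overlap functions were tested on simulated data. Computing used numpy 2.4.6 and pandas 2.3.3 under Python 3.11.15, intervals scipy 1.17.1 and plots matplotlib 3.10.9. Alternatives covered the window, the overlap rule, the score, the q-value, the start distance and neighbouring genes.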

Additional observations from a re-analysis of the deposited data

How the results depend on the processing

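Of 67 alternative values for 11 results, 58 stayed within the interval or within 1.5 times the count, and 9 moved. Counting only regions that overlap the gene record left 41 GATA3, 36 BHLHE40 and 127 H3K27ac regions, by construction over less sequence. The H3K27ac regions whose −log10 q was 5 or more numbered 69, and they overlapped 58.0% of BHLHE40 and 37.8% of GATA3 regions. Requiring the factor summit inside the H3K27ac region gave 49.3% and 35.1%. With 5 kb on each side of the start, GATA3 was listed at 7 of the 10 genes instead of 3, against 29.9% of protein-coding genes read in the same way. Dropping regions near the ends of neighbouring genes and reading any listed start were chosen after seeing the data. They changed values, but none beyond the interval or 1.5 times the count. Dropping those regions left 68 GATA3, 56 BHLHE40 and 203 H3K27ac regions. Reading any listed start gave 4 genes for GATA3 and 10 each for BHLHE40 and H3K27ac. Leaving out a replicate was not run, because the lists hold no value per sample. No paired analysis was possible because a list gives 1 value per region for a whole group. Depth is unknown, so a missing region means only that none was listed.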
